A study of Homo sapiens with 24 samples.

Results

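The induction of IDO1 by IFNγ was followed across the 8 groups of arrays from SW-13 cells. The gene was read from 2 probes, ILMN_3239965 and ILMN_1656310, of the 47231 on the array, which were taken by their probe IDs and are both assigned to IDO1 in Illumina's annotation of the HT-12 array. The deposited table does not name genes, so this assignment was not checked against the files, and neither a probe sequence nor a genome build was given with the signals. The SW-13 line comes from a human adrenocortical carcinoma and is deficient in BRG1, a defect that every group shares. Cells received 50 nM siCtrl (control siRNA) or siSUZ12, in each case alone or with 75 nM siBRM, in a repeated transfection, and were then left untreated or given 0.1 mg/ml IFNγ for 6 hours. This gave siCtrl, siSUZ12, siCtrl+siBRM and siSUZ12+siBRM cells, each untreated and with IFNγ, with 3 biological replicates per group. Cells with siBRM thus carried a total of 125 nM siRNA against 50 nM elsewhere, and since 0 groups had the higher total without siBRM, the effects of siBRM and of siRNA load cannot be told apart. No probe could be tied to SUZ12 or BRM, so their knockdown was not analysed here.

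IDO1 encodes indoleamine 2,3-dioxygenase 1, the enzyme that opens the indole ring of tryptophan and thereby commits it to the kynurenine pathway. Loss of tryptophan and gain of kynurenine restrain T cells and starve intracellular microbes, and many tumors use the enzyme in immune escape. Transcription of the gene is a classical response to IFNγ. SUZ12 is a core subunit of PRC2, which places the repressive H3K27me3 mark on chromatin, while BRM and BRG1 are the alternative ATPases of the SWI/SNF remodeling complex. The siSUZ12 arrays ask whether an ISG (IFNγ stimulated gene) becomes more responsive when PRC2 is depleted, and the siBRM arrays ask whether BRM is needed for that.

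A probe's signal is its brightness in arbitrary units. Arrays had mean signals of 532 to 635 and detected 15223 to 16799 probes each, and across probes the log2 correlation between replicates was 0.994 to 0.995. Signals were scaled so that all arrays had the same mean, and are called normalized signals below. The detection p-value ranks a probe against the array's negative control beads, and a probe was read as detected when it was below 0.01. The background signal of an array was taken as the median normalized signal of probes with a detection p-value from 0.45 to 0.55, and it ran from 88.8 to 101.8. It was not subtracted, so every fold over a background signal understates the change in mRNA.

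IDO1 was chosen by its log2 signals on the arrays without siBRM, where ILMN_3239965 had the largest rise in induction after siSUZ12. Its values there, and any comparison that uses those arrays, are therefore given as a description with no test. In comparisons made wholly of siBRM arrays, the log2 differences used none of those arrays. These comparisons were tested by limma, fitted to all 47231 probes on the 24 arrays. The estimate of spread behind each test therefore did draw on the arrays without siBRM.

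IDO1 was not detected in siCtrl cells, with or without IFNγ. The normalized signal of ILMN_3239965 was 94.0, 101.6 and 84.9 in untreated siCtrl cells (replicates 1 to 3) and 90.4, 92.5 and 94.1 with IFNγ. That of ILMN_1656310 was 79.8, 85.3 and 73.9 untreated and 92.2, 78.2 and 84.5 with IFNγ. For both probes the untreated and IFNγ arrays overlapped, and none of these arrays detected either probe.

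The gene was not detected in untreated siSUZ12 cells either, whereas it was bright in siSUZ12 cells given IFNγ. Untreated siSUZ12 cells had signals of 89.6, 102.5 and 109.1 for ILMN_3239965, and of 92.1, 83.1 and 84.4 for ILMN_1656310. With IFNγ the signal of ILMN_3239965 was 2439, 2382 and 2592, a mean of 2471 ± 108 (SD, n = 3). The signal of ILMN_1656310 was 1545, 1492 and 1580, a mean of 1539 ± 44.0 (SD, n = 3). No IFNγ array of siSUZ12 cells overlapped any array of siCtrl cells or of untreated siSUZ12 cells. Within a replicate number, the log2 induction by IFNγ ran from 4.54 to 4.77 for ILMN_3239965 and from 4.07 to 4.23 for ILMN_1656310, against -0.14 to 0.15 and -0.13 to 0.21 in siCtrl cells. The mean log2 induction in siSUZ12 cells was 4.62 (24.7-fold) at ILMN_3239965 and 4.15 (17.8-fold) at ILMN_1656310. In bulk RNA, a larger share of responding cells and more mRNA per cell cannot be told apart.

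**Figure D1:**
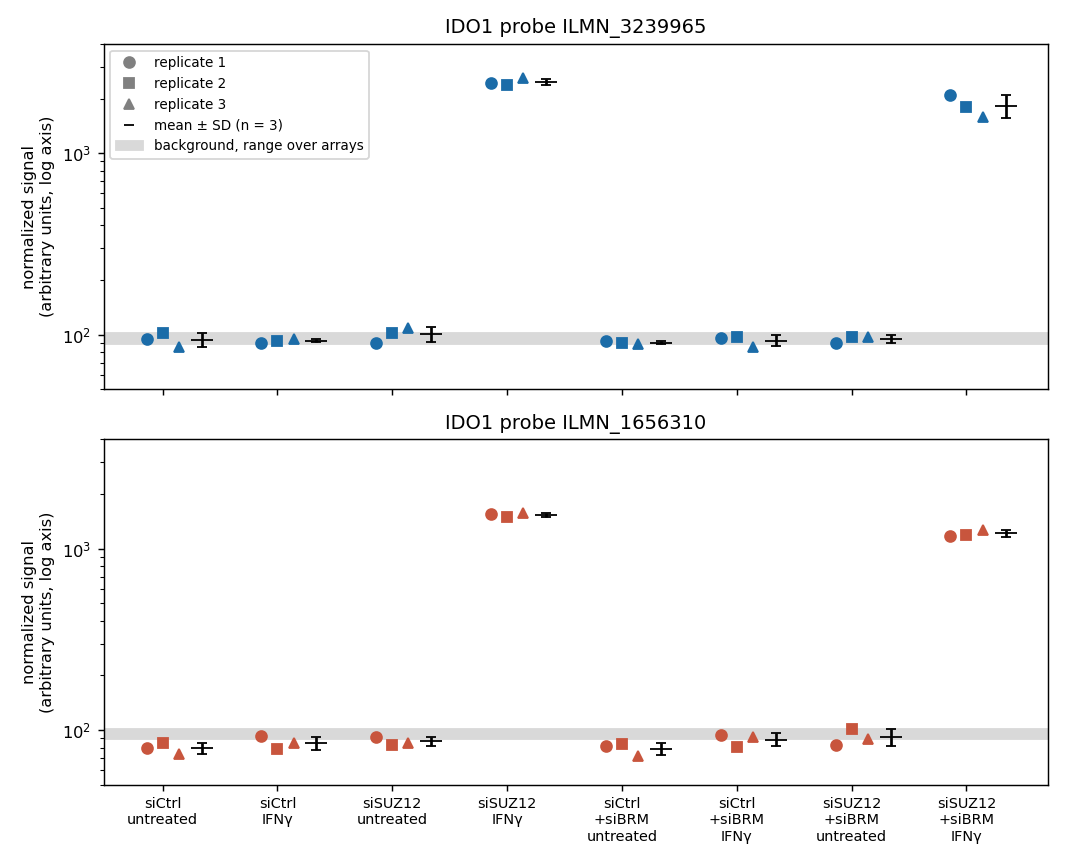
Normalized signal (log axis, arbitrary units) of the 2 IDO1 probes on the 24 arrays, with groups along the horizontal axis, 1 marker shape per replicate number, black bars for the mean ± SD (n = 3) and a grey band for the background signal over arrays (88.8 to 101.8). The 6 arrays of siSUZ12 and siSUZ12+siBRM cells with IFNγ lie at 1181 or more, and the other 18 lie between 72.0 and 109.1.

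In the siBRM arrays IDO1 was likewise bright only in cells that had received both siSUZ12 and IFNγ. In siCtrl+siBRM cells ILMN_3239965 had signals of 92.3, 90.0 and 88.4 untreated and of 95.6, 96.7 and 85.1 with IFNγ. In siSUZ12+siBRM cells it went from 89.4, 96.6 and 97.5 untreated to 2099, 1792 and 1585 with IFNγ, a mean of 1825 ± 259 (SD, n = 3). The IFNγ arrays of siSUZ12+siBRM cells stood far above the other 9 siBRM arrays, which overlapped one another.

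IFNγ raised the log2 signal of ILMN_3239965 in siSUZ12+siBRM cells by 4.26 (standard error 0.09, 19.2-fold), with an adjusted p of 8.97e-28 from limma with Benjamini-Hochberg adjustment. Both IDO1 probes were called as induced ≥ 2-fold there, in a comparison that called 140 probes, or 0.296% of all probes, as raised. In siCtrl+siBRM cells the log2 change with IFNγ was 0.03 (95% confidence interval -0.15 to 0.22, limma adjusted p = 0.972). Neither IDO1 probe was called in siCtrl+siBRM cells by limma, neither had an unadjusted p below 0.05, and 75 probes, 0.159% of all, were raised ≥ 2-fold. Other probes therefore responded to IFNγ in cells where IDO1 was not detected.

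ILMN_1656310 gave the same direction at a lower signal. It measured 81.4, 83.3 and 72.0 in untreated siCtrl+siBRM cells and 94.1, 80.5 and 91.1 with IFNγ. It measured 82.8, 101.7 and 89.6 in untreated siSUZ12+siBRM cells and 1181, 1189 and 1274 with IFNγ. Its log2 induction in siSUZ12+siBRM cells was 3.74 (standard error 0.09, 13.3-fold, limma adjusted p = 1.19e-26). In siCtrl+siBRM cells it was 0.17 (95% confidence interval -0.01 to 0.35, limma adjusted p = 0.628), and replicate 2 was lower with IFNγ than untreated.

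With IFNγ, siSUZ12 raised IDO1 in siBRM cells by a log2 of 4.30 at ILMN_3239965 (standard error 0.09, 19.6-fold, limma adjusted p = 1.40e-27) and of 3.78 at ILMN_1656310 (standard error 0.09, 13.7-fold, limma adjusted p = 1.91e-26). The direction was the same in 3 of 3 replicates at both probes. In this comparison 138 probes, 0.292% of all, were raised ≥ 2-fold.

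Without IFNγ, neither IDO1 probe passed the test for an siSUZ12 effect in siBRM cells. The log2 difference was 0.07 at ILMN_3239965 (95% confidence interval -0.12 to 0.25, limma adjusted p = 0.813). At ILMN_1656310 it was 0.21 (95% confidence interval 0.03 to 0.39, unadjusted p = 0.0237 and adjusted p = 0.178 by limma), with 0 of the 3 arrays of either group detecting the probe. In the same comparison 114 probes, 0.241% of all, were raised ≥ 2-fold.

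The change in the response to IFNγ was itself tested. Induction by IFNγ was higher in siSUZ12+siBRM than in siCtrl+siBRM cells by a log2 of 4.23 at ILMN_3239965 (standard error 0.13, 95% confidence interval 3.97 to 4.49, limma adjusted p = 3.55e-22). At ILMN_1656310 the difference was 3.57 (standard error 0.12, 95% confidence interval 3.32 to 3.82, limma adjusted p = 1.30e-20). Only 18 probes, 0.0381% of all, passed the same threshold in that direction. Ranked by size, ILMN_3239965 was at place 1 and ILMN_1656310 at place 2 of the 47231 probes, and the largest log2 difference at any other probe was 3.09. For a comparison of 2 groups of 3 arrays, 0.10 is the smallest 2-sided p-value that a permutation could reach. The difference in induction uses 4 groups, so that limit does not apply to it. The limma tests rest on a spread shared over arrays and probes.

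**Figure D2:**
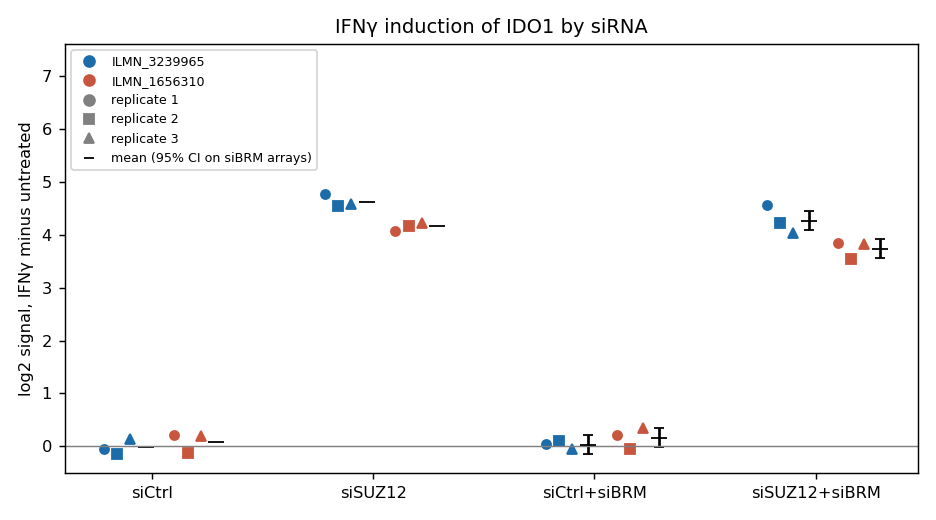
Log2 signal with IFNγ minus that of the untreated array of the same replicate number (markers) for both IDO1 probes in the 4 siRNA backgrounds, with the mean as a black bar and, on the siBRM arrays, its 95% confidence interval. Induction lies between -0.14 and 0.34 in siCtrl and siCtrl+siBRM cells, and at 3.55 or more in siSUZ12 and siSUZ12+siBRM cells.

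The confidence intervals bound the response in siCtrl+siBRM cells. The upper end of the confidence interval corresponded to a gain of 14.8 units of normalized signal at ILMN_3239965, which is 0.853% of the gain of 1731 units in siSUZ12+siBRM cells. At ILMN_1656310 it corresponded to 21.3 units, or 1.90% of a gain of 1124 units. These are the largest gains inside the intervals, not detection limits.

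The detection p-values divided the arrays in the same way at both probes. Each probe was detected by 6 of the 24 arrays, all of them siSUZ12 or siSUZ12+siBRM cells with IFNγ, where the detection p-value was 0. On the other 18 arrays it ran from 0.145 to 0.709 at ILMN_3239965 and from 0.264 to 0.936 at ILMN_1656310. The array closest to detection was replicate 3 of untreated siSUZ12 cells for ILMN_3239965, at 0.145, where ILMN_1656310 stood at 0.765. The other was replicate 2 of untreated siSUZ12+siBRM cells for ILMN_1656310, at 0.264, where ILMN_3239965 stood at 0.394. Thus the highest undetected array was not the same at both probes. The lowest detected array exceeded the highest undetected one 14.5-fold at ILMN_3239965 and 11.6-fold at ILMN_1656310.

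**Figure D3:**
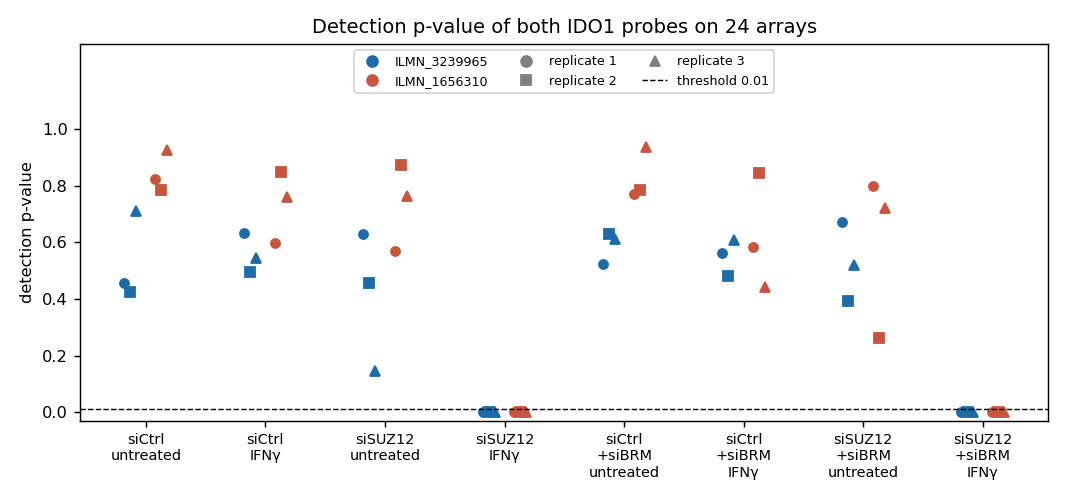
Detection p-value of both IDO1 probes on the 24 arrays by group, with a dashed line at 0.01. The p-value is 0 at both probes on the 6 arrays of siSUZ12 and siSUZ12+siBRM cells with IFNγ, and 0.145 or more elsewhere.

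Against the negative controls, the undetected arrays of ILMN_1656310 sat lower than those of ILMN_3239965. On 16 of its 18 undetected arrays the signal of ILMN_1656310 was below the background signal of the array, compared with 11 of 18 for ILMN_3239965.

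The addition of siBRM to siSUZ12 went with a lower IDO1 signal under IFNγ. The mean normalized signal of ILMN_3239965 was 2471 in siSUZ12 and 1825 in siSUZ12+siBRM cells, and no array of one group overlapped the other. Within a replicate number the log2 difference was -0.22, -0.41 and -0.71. For ILMN_1656310 the means were 1539 and 1215, again without overlap, and the log2 difference was -0.39, -0.33 and -0.31. The mean differences at both probes were under 1.5-fold, as were those of 99.72% of all probes in this comparison. How many other probes separated these groups without overlap was not counted. In terms of the gain over untreated cells, siSUZ12+siBRM cells reached 73.0% of the gain of siSUZ12 cells at ILMN_3239965 and 77.4% at ILMN_1656310. The log2 induction itself differed by -0.36 and -0.42, in the same direction in 3 of 3 replicates at both probes. In the same ranking of that difference the probes were at places 47128 and 47187. These comparisons share the siSUZ12 arrays for which IDO1 was chosen, so no test is given.

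In siCtrl cells with IFNγ, siBRM made a log2 difference of 0.0002 at ILMN_3239965 and 0.06 at ILMN_1656310, between groups that overlapped and were not detected.

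Ordered by level, siSUZ12 cells with IFNγ came first at both probes and siSUZ12+siBRM cells with IFNγ next. The step between these groups was 1.36-fold at ILMN_3239965 and 1.27-fold at ILMN_1656310. Their arrays did not overlap, but the share of all probes that separated them in this way was not counted. From siSUZ12+siBRM cells with IFNγ the level stepped down 18.1-fold at ILMN_3239965 and 13.3-fold at ILMN_1656310 to the highest of the other 6 groups. Among those 6 groups each overlapped the next in the order. The highest of them was untreated siSUZ12 for ILMN_3239965 (100.4 ± 9.90, SD, n = 3) and untreated siSUZ12+siBRM for ILMN_1656310 (91.4 ± 9.60, SD, n = 3). The lowest was untreated siCtrl+siBRM at both probes.

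The 2 probes of the gene differed in brightness but not in where they lit up. In siSUZ12 cells with IFNγ, ILMN_3239965 was 1.58, 1.60 and 1.64 times as bright as ILMN_1656310 on replicates 1 to 3. In siSUZ12+siBRM cells with IFNγ the ratio was 1.78, 1.51 and 1.24, a wider spread. Where the gene was not detected, the ratio ran from 0.934 to 1.29. Brightness differs between probes of a single mRNA on these arrays, so the ratio is not a measure of transcript amounts.

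**Figure D4:**
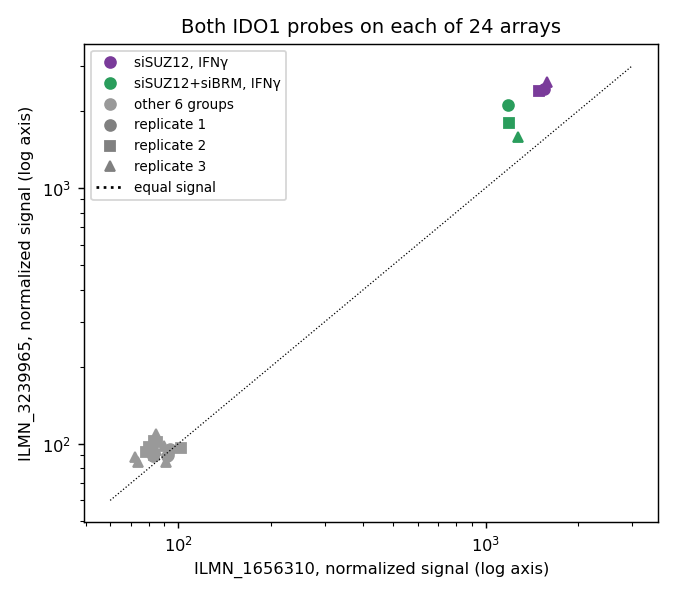
Normalized signal of ILMN_3239965 against that of ILMN_1656310 on each of the 24 arrays (both axes log, arbitrary units), colored for siSUZ12 and siSUZ12+siBRM cells with IFNγ, with a dotted line of equal signal. The 18 arrays of the other 6 groups form a cloud at background, and the 6 arrays with IFNγ after siSUZ12 lie apart, above the line by 1.24- to 1.78-fold.

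Few probes on the array had this pattern of detection. Of the 47231 probes, 16, or 0.0339%, were detected by all 6 siSUZ12 and siSUZ12+siBRM arrays with IFNγ and by none of the other 18. Both IDO1 probes are among the 16, which were picked by IDO1's own pattern of detection, so the count is a description.

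The likeness of other probes to ILMN_3239965 was measured as the root-mean-square difference over the 8 group means of log2 signal, each taken as the change from untreated siCtrl cells. ILMN_1656310 was the closest of all probes, at 0.22, against a median of 2.26 over all probes. Most probes changed little between groups, so this median mainly restates the size of the change at ILMN_3239965. The next closest probes were ILMN_1771385, at 0.53, and ILMN_2410826, at 0.90, whose genes the files do not name. ILMN_1771385 had a signal of 137 ± 10.2 (SD, n = 3) in siCtrl and 1259 ± 29.5 (SD, n = 3) in siSUZ12 cells with IFNγ. Unlike IDO1, it was detected in part without siSUZ12. Given IFNγ, 1 of 3 arrays detected it in siCtrl cells and 2 of 3 did so in siCtrl+siBRM cells. Its signal in siSUZ12+siBRM cells with IFNγ, 1240 ± 126 (SD, n = 3), overlapped that without siBRM. ILMN_2410826 was detected on the same 6 arrays as IDO1 and at a lower signal, 549 ± 28.4 (SD, n = 3) in siSUZ12 and 510 ± 40.8 (SD, n = 3) in siSUZ12+siBRM cells with IFNγ.

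**Figure D5:**
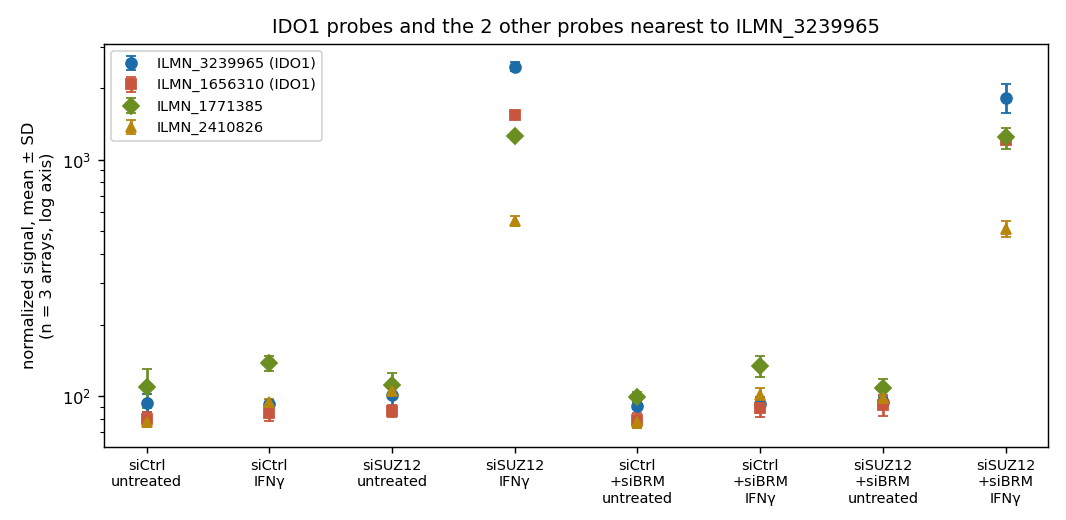
Mean normalized signal ± SD (n = 3, log axis) of the 2 IDO1 probes and of ILMN_1771385 and ILMN_2410826 in the 8 groups. All 4 probes are near background in untreated cells and are highest in siSUZ12 and siSUZ12+siBRM cells with IFNγ, where ILMN_3239965 reaches 2471 and ILMN_2410826 reaches 549 without siBRM.

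The rest of the kynurenine pathway, the IFNγ signaling genes and the markers of the cell line were not analysed here, because 0 of the 47231 probe IDs matched a gene name table.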

How the data were processed

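RNA from the 24 cultures was hybridized to Human-HT-12 Expression BeadChips. The authors deposited 1 signal intensity per probe and array, not normalized, beside its deposited detection p-value. The labels name BeadStudio. Whether background was subtracted is not given in the sources used here, but the deposited signals still carried a background. The lowest of them was 45.37, and the background signal defined above ran from 88.8 to 101.8. Groups and replicate numbers were taken from sample titles. To follow the average normalization named in the Methods, signals were multiplied by a factor per array that made all array means equal, values under 16 were set to 16 (0 were), and the result was log2 transformed.

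Linear models were fitted with limma 3.58.1 under R 4.3.3 (lmFit, contrasts.fit, eBayes), using the 24 arrays and 1 coefficient for each group (16 residual degrees of freedom). P-values were adjusted over 47231 probes (Benjamini-Hochberg), and probes were called at ≥ 2-fold and an adjusted p-value below 0.05. Figures used matplotlib 3.10.9 in Python 3.11.15. On simulated data for the difference in induction, 200 of 47231 probes were changed, with noise drawn independently for each array. Recovery was counted at a limma adjusted p-value below 0.05 alone, without the 2-fold threshold. It was 99.0% at a log2 of 1 with 3 false calls, and 58.5% at a log2 of 0.6 with 8.

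The 2 probes and the gene lists were chosen with earlier results of these data known. By rule, the IDO1 probes and the 2 other probes most like ILMN_3239965 were named. Arrays give no counts, and 3 per group limit the precision. The alternatives were quantile normalization, no scaling, neqc, a detection filter (below 0.01 in at least 3 arrays), a fit of the 4 siBRM groups, a replicate block, trended and robust eBayes, a 1.5-fold threshold, detection at 0.05, and leaving out each replicate number or array.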

Additional observations from a re-analysis of the deposited data

Results flagged for a closer look

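The IFNγ effect on IDO1 differed between siSUZ12+siBRM and siCtrl+siBRM cells by the interaction term of limma, by a log2 of 4.23 at ILMN_3239965 and of 3.57 at ILMN_1656310. It was higher in siSUZ12+siBRM cells in 3 of 3 replicates at both probes. Groups of 3 arrays were too small to look for outlying arrays.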

How the results depend on the processing

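The tested IDO1 differences were recomputed under 34 alternatives each. Induction in siSUZ12+siBRM cells, the siSUZ12 effect with IFNγ and the difference in induction kept their direction and an adjusted p-value below 0.05 (limma) in all 34, with log2 values from 4.09 to 5.99 at ILMN_3239965 and from 3.50 to 5.42 at ILMN_1656310; the highest values came with neqc, which subtracts background. The other tested differences stayed above 0.05 in all 34. The log2 change of ILMN_3239965 in siCtrl+siBRM cells turned to -0.023 without scaling, and ran from -0.0021 to 0.092 when a replicate number or array was left out. With neqc the described log2 values for siSUZ12 cells became 6.34 and 5.87 for induction, 6.46 and 5.87 for the siSUZ12 effect with IFNγ, and 6.36 and 5.80 for the difference in induction, at ILMN_3239965 and ILMN_1656310 in that order. Leaving out arrays gave from -0.029 to 0.19 for the siSUZ12 effect on untreated ILMN_3239965, from 0.032 to 0.20 for ILMN_1656310 with IFNγ in siCtrl cells, from 3.95 to 4.16 for its difference in induction between siSUZ12 and siCtrl cells and from -0.56 to -0.31 for siBRM in siSUZ12 cells with IFNγ at ILMN_3239965. The -0.029 came without replicate 3.

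Probes called as raised numbered 130 with neqc and 186 at 1.5-fold for IFNγ in siCtrl+siBRM cells, 223 and 275 for IFNγ in siSUZ12+siBRM cells, 260 and 379 for siSUZ12 in untreated siBRM cells, 274 and 410 for siSUZ12 with IFNγ, and 33 and 41 for the difference in induction, against 75, 140, 114, 138 and 18. Detection at 0.05 left 6 arrays for each probe. Quantile normalization gave the same 2 other probes most like ILMN_3239965.

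Whether the replicate numbers pair the arrays was mixed. Deviations from the group means had a median correlation of 0.165 among arrays numbered 1 (22 of 28 pairs over 0.1), -0.005 among those numbered 2 (0 of 28) and 0.131 among those numbered 3 (21 of 28), against -0.046 (13 of 168) between different numbers, and 17 of the 24 arrays correlated best with their own number. Since not every pair was over 0.1, the numbers were not used as pairs in the main tests. Differences within a replicate number, and counts of replicates with the same direction, only describe arrays that share a number. A replicate block cannot move a log2 value here and left each count of called probes unchanged.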

Other observations

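The 2 IDO1 probes did not order the siSUZ12+siBRM arrays with IFNγ in the same way. ILMN_3239965 was highest on replicate 1 (2099) and lowest on replicate 3 (1585), while ILMN_1656310 was lowest on replicate 1 (1181) and highest on replicate 3 (1274). The coefficient of variation of the 3 arrays was 14.2% at ILMN_3239965 and 4.23% at ILMN_1656310, compared with 4.39% and 2.86% in siSUZ12 cells without siBRM. The spread of the siBRM difference at ILMN_3239965 was thus not shared by the other probe of the gene, and the cause was not tested.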
